A study of Mus musculus with 28 samples.

Results

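The interferon-inducible GTPases described here are 10 mouse genes of the 50600 in the table: 7 immunity-related GTPases (IRG), namely Irgm1, Irgm2, Igtp, Tgtp1, Tgtp2, Iigp1 and Gm12250 (also called Irgb10), and 3 guanylate-binding proteins (GBP), namely Gbp2, Gbp3 and Gbp7. They were picked by gene name, and the choice was made with differences of some of them on days 3 and 5 already known, so the values of those days are given as a description, with no test. All 10 passed the filter of a mean value of at least 1 over the libraries. RNA-seq was performed on mouse embryonic fibroblasts (MEFs) that carry an Oct4-GFP reporter and were taken from embryos of male OG2 and female 129 mice, labelled WT. The cells were infected with retroviruses carrying Oct4, Klf4 and Sox2 and moved to the chemically defined induction medium iCD1, in which they are reprogrammed toward induced pluripotent stem cells. SB203580 is an inhibitor of the stress kinase p38: in the p38i arm it was present during induction, in the pre-p38i arm the MEFs received it before induction, and the DMSO arm is the control. Each arm was sampled on days 1, 3, 5 and 7, beside MEFs without treatment and MEFs with p38i, which gives 14 groups of 2 libraries, 28 in all.

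The labels do not say that the 2 libraries of a group came from separate cultures, so every p-value below measures the spread between these libraries only, which may be technical. Every deposited value is a whole number and the library totals lie between 991287 and 992537, as those of TPM (length-scaled transcript abundances brought to a common total) would if each were rounded down, so levels can be compared between genes per length and a listed 0 means a value below 1. The number of reads behind a value is unknown. With 2 libraries against 2, an exact permutation test cannot give a p below 0.333, and the tests below are limma fits over 13230 genes on log2(value + 1), with Benjamini-Hochberg adjustment over all of them and a threshold of 0.05. A difference called higher or lower below is one past that threshold, and a log2 difference is on the log2(value + 1) scale, which understates the change of low genes.

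IRG and GBP proteins are the cell-autonomous arm of the response to interferon, above all to interferon gamma: they are made in almost any mouse cell that receives the signal and act inside it. The regulatory IRGs, Irgm1, Irgm2 and Igtp (Irgm3), sit on the membranes of the cell's own organelles and keep the effector IRGs inactive there. The effector IRGs, among them Tgtp1, Tgtp2, Iigp1 and Irgb10, load onto the vacuoles of intracellular parasites and bacteria and break them, while the GBPs coat vacuoles and bacterial surfaces and promote inflammasome signalling. Promoter elements through which such genes are switched on are the gamma-activated site and the interferon-stimulated response element (ISRE), the latter bound by interferon regulatory factors.

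The promoters are shown because the members rise together and because all 9 with a RefSeq window hold the same element. In the RefSeq windows (GRCm38.p6, 250 bases before to 50 after each transcription start) both strands were searched for the ISRE core, which is GAAA, any 2 bases and GAAA, and for the gamma-activated site, which is TTC, any 3 bases and GAA. The ISRE core was found in 9 of 9 members with a window and in 3.44% of all 32851 windows, and the gamma-activated site in 6 of 9 and in 8.3%. A gene was counted if any of its windows matched, whereas the percentages count windows. The core is not particular to the members: 15 of 23 type I interferon antiviral genes, 11 of 19 interferon genes and 3 of 7 other IRG and GBP genes held it. The gamma-activated site stood in 4 of 23, 10 of 19 and 1 of 7 of them. The following lines give positions -110 to -11 from each start, read 5′ to 3′ on the gene's strand, with matches to either motif in capitals. An ISRE core on the opposite strand reads TTTC, 2 bases and TTTC.
Irgm1: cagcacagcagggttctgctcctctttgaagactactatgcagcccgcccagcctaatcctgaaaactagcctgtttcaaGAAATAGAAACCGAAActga
Irgm2: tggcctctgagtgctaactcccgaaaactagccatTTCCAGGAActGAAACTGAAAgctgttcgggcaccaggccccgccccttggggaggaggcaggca
Igtp: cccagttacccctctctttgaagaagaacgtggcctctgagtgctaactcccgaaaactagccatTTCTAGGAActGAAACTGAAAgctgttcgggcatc
Tgtp1: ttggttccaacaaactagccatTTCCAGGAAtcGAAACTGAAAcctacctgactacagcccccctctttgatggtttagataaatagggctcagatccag
Tgtp2: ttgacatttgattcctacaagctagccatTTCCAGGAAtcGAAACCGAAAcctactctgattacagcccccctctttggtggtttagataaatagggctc
Gm12250: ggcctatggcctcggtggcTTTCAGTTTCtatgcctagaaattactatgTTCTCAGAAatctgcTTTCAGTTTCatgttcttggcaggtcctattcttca
Gbp2: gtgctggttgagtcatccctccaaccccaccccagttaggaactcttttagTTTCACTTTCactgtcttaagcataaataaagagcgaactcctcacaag
Gbp3: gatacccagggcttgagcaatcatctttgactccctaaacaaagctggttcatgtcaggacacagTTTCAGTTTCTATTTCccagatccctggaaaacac
Gbp7: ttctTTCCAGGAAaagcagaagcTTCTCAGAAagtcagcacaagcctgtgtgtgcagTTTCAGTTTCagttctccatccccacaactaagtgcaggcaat

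These windows are chr11:48871431-48871530 (minus) for Irgm1, chr11:58214867-58214966 (plus) for Irgm2, chr11:58199446-58199545 (plus) for Igtp, chr11:48992257-48992356 (minus) for Tgtp1 and chr11:49064223-49064322 (minus) for Tgtp2. Those of the remaining members are chr11:58183733-58183832 for Gm12250, chr3:142620553-142620652 for Gbp2, chr3:142559934-142560033 for Gbp3 and chr3:142530226-142530325 for Gbp7, all on the plus strand. The RefSeq starts are not always those of the gene models to which the values belong. The window of Irgm2 lies inside its model, which begins at 58199618, and that of Tgtp1 inside a model that ends at 48994172. The window of Gm12250 lies ahead of its model, which begins at 58187739. In Irgm1 and Gbp3 the capitals span 2 overlapping ISRE cores. Both motifs stood in 6 of 9 members (Irgm2, Igtp, Tgtp1, Tgtp2, Gm12250 and Gbp7) and in 0.454% of all windows. In Irgm2, Igtp, Tgtp1 and Tgtp2 the ISRE core began 11 bases after the start of the gamma-activated site. That spacing, which was looked for after the matches were seen, occurred in 5 windows in all (0.0152%), and the remaining one belongs to Gm12185, a gene with a stretch nearly identical to Tgtp2. The printed windows of Irgm2 and Igtp share an unbroken run of 38 bases, and those of Tgtp1 and Tgtp2 one of 24, so the copies of the motif pair are not independent. A second RefSeq window of Gbp3 held neither motif. A match of letters is a description of the sequence and was not tested for binding.

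**Figure D1:**
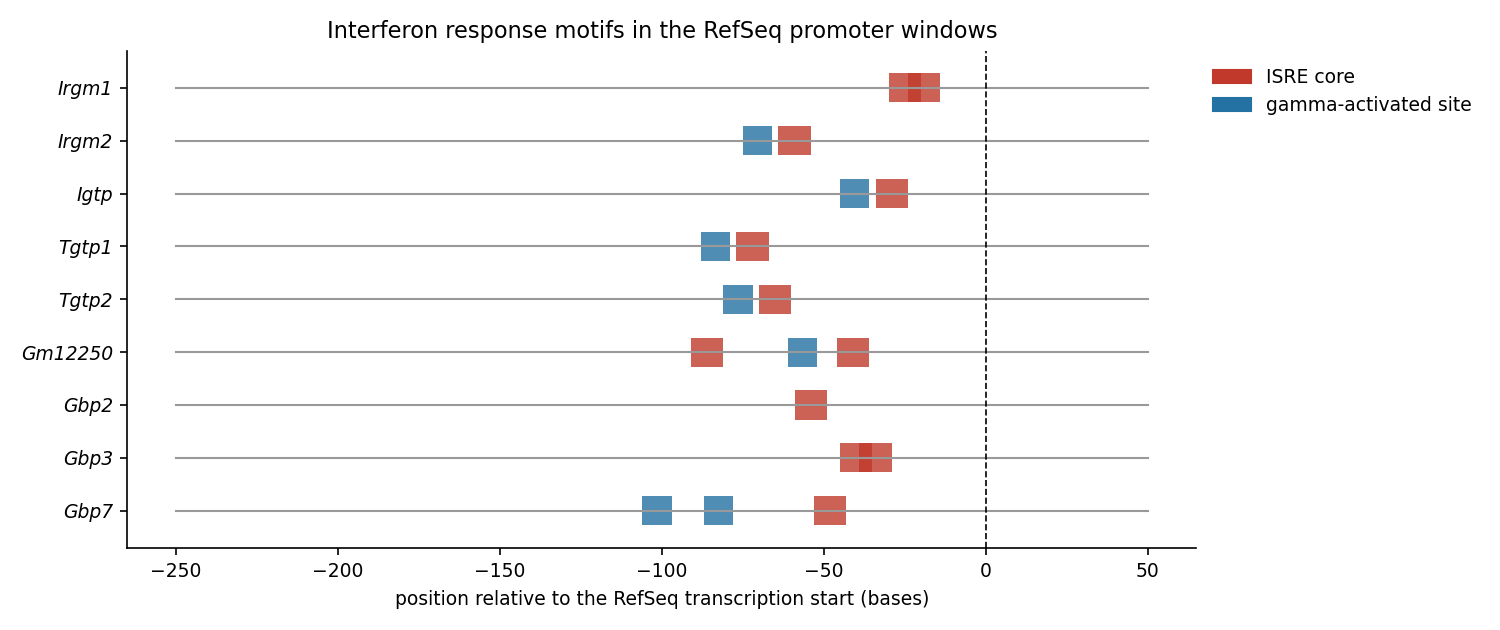
Position of motif matches in the RefSeq promoter window of 9 members, in bases from the transcription start (dashed line). Red boxes are ISRE cores on either strand and blue boxes gamma-activated sites. Every match lies between -106 and -15, and in Irgm2, Igtp, Tgtp1 and Tgtp2 the blue and red boxes sit at the same distance from each other.

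On chromosome 11 lie 6 members, in the order Irgm1 (chr11:48861968-48871683, minus strand), Tgtp1 (chr11:48985327-48994172, minus), Tgtp2 (chr11:49057194-49064206, minus), Gm12250 (chr11:58187739-58189012, plus), Igtp (chr11:58199556-58207591, plus) and Irgm2 (chr11:58199618-58222782, plus). The 3 GBP genes lie side by side on the plus strand of chromosome 3, Gbp7 at chr3:142530342-142550149, Gbp3 at chr3:142560026-142573209 and Gbp2 at chr3:142620602-142638008, and Iigp1 lies alone at chr18:60376029-60392627. These positions are those of the deposited table, on GRCm38 (mm10). Several members cannot be fully separated by their reads. The transcripts of Tgtp1 and Tgtp2 are 99.8% identical over 2811 aligned bases, so how their reads were split between them is uncertain. The gene models of Igtp and Irgm2 share 7974 bases on the same strand. Gbp7 is identical over 637 bases to Gm43802, which reached at most 13 in any library, and Tgtp2 is 99.1% identical over 223 bases to Gm12185, which reached at most 4. The row of Gm12250 is a model that GENCODE classes as a processed pseudogene, whereas RefSeq has a protein-coding gene there.

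Before induction the family was nearly silent, with Irgm1 as the exception. Irgm1, a regulator that is also needed for mitochondrial quality control and autophagy, stood at 27 and 32 in the 2 untreated MEF libraries and at 24 and 27 in MEFs with p38i. Gbp2 was listed at 1 and 2 without and at 2 and 2 with the inhibitor, and no other member passed 1. Irgm1 thus made up 93.1% and 91.4% of the summed value of the 10 genes in untreated MEFs. No member was called between MEFs with and without p38i (limma, 0 of 10, and 0 of 10 at an unadjusted p under 0.05), against 17.9% of all genes called in either direction. Except for Irgm1, the members were at or near 0 in both groups, so this count cannot show whether the inhibitor changed them.

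On day 1 of induction 5 members were above their level in MEFs, all by small amounts. Relative to untreated MEFs, Gbp3 was higher on day 1 in DMSO (3 and 7 against 0 and 1, log2 difference 2.00 ± 0.31 SE), as were Tgtp1 (2 and 3 against 0 and 0), Gbp2 (6 and 9 against 1 and 2), Gbp7 (1 and 1 against 0 and 0) and Irgm1 (36 and 43 against 27 and 32, log2 difference 0.41). This is 5 of 10 called higher (limma), against 36.6% of all genes, so the share among the members was near that of the table. Their median difference was 0.50, and that of all genes 0.14. Irgm1 was no longer called without untreated MEF replicate 1 or without DMSO day 1 replicate 2. Tgtp2, Iigp1 and Gm12250 were listed at 0 in all 6 day 1 libraries of the 3 arms.

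A difference between p38i and DMSO was present on day 1 in 3 members. Tgtp1 stood at 0 and 1 in p38i and at 2 and 3 in DMSO, Gbp2 at 3 and 4 against 6 and 9, and Irgm1 at 28 and 27 against 36 and 43. All 3 were called lower (limma; log2 differences of -1.29, -0.90 and -0.50, adjusted p of 9.38e-05, 0.00399 and 0.00194), which is 3 of 10 against 12.6% of all genes. Gbp2 lost its call without DMSO day 1 replicate 2 and without p38i day 1 replicate 1. Fitted on the groups compared alone, 0 of 10 were called. Against pre-p38i on the same day, p38i was lower in 5 of 10 (Gbp2, Gbp7, Igtp, Irgm1 and Tgtp1), against 19.9% of all genes. Gbp2 lost this call without replicate 1 of either group, and Gbp7 without replicate 2 of either. Between pre-p38i and DMSO 0 of 10 were called (limma; 1 of 10, Igtp, had an unadjusted p under 0.05), against 11.6% of all genes in either direction. These are differences between values of a few units, in which rounding takes a large part, except for Irgm1.

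**Figure D2:**
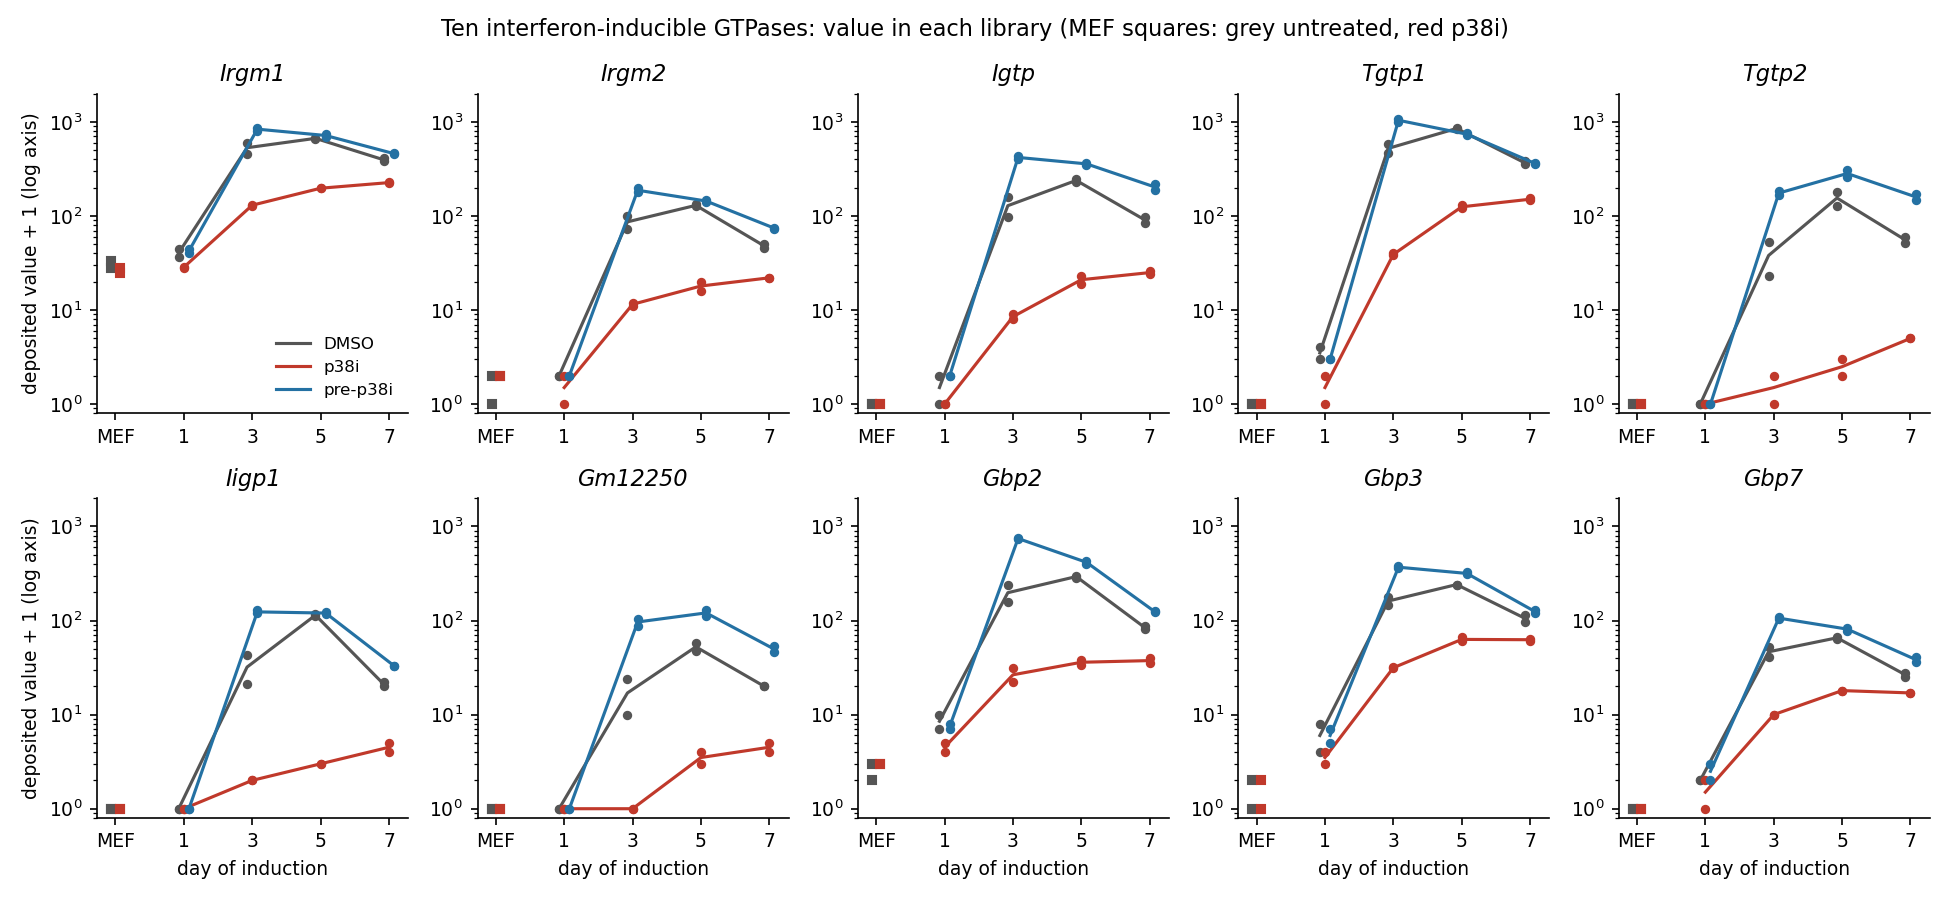
Deposited value + 1 on a log axis, for each member, by day of induction, with MEFs at the left. Circles are single libraries, squares MEF libraries (grey untreated, red with p38i), and lines join the means of 2 libraries. From day 3 on the red p38i points lie below the grey DMSO and blue pre-p38i points in every panel, and on day 3 the blue points lie above the grey ones in every panel.

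Among the regulatory IRGs, Irgm1 was the most abundant in every group. In DMSO, Irgm1 was 458 and 601 (day 3), 662 and 671 (day 5) and 407 and 380 (day 7). In pre-p38i it was at 805 and 865, 695 and 734, and 460 and 456 on those days. In p38i it reached 130 and 128, 196 and 196, and 229 and 221. The p38i libraries were below all DMSO and pre-p38i libraries on each of the 3 days, but even there Irgm1 was the most abundant member. Irgm2, the Golgi-associated regulator, was 71 and 100, 132 and 125, and 49 and 45 in DMSO on days 3, 5 and 7, and 178 and 195, 138 and 148, and 72 and 74 in pre-p38i. It never passed 21 in p38i, where it was 10 and 11, 19 and 15, and 21 and 21. Igtp, which resides on the endoplasmic reticulum and lipid droplets, was 96 and 159, 244 and 231, and 96 and 84 in DMSO, and 398 and 437, 345 and 368, and 187 and 217 in pre-p38i. In p38i Igtp was 7 and 8, 22 and 18, and 23 and 25. No library of one arm overlapped another arm for Igtp on any of these days.

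The effector IRGs spanned the widest range. Tgtp1, an effector that acts on the vacuole of Toxoplasma, was the most abundant member at its peak: in DMSO it stood at 467 and 575 (day 3), 862 and 836 (day 5) and 379 and 351 (day 7). In pre-p38i it was 1076 and 1000, 718 and 758, and 358 and 361, so on day 7 it lay within the DMSO range. In p38i it was 39 and 37, 129 and 119, and 145 and 154. Its near-copy Tgtp2 was at 22 and 52, 180 and 128, and 58 and 51 in DMSO, and at 165 and 183, 260 and 303, and 148 and 169 in pre-p38i. In p38i Tgtp2 was almost unlisted, at 0 and 1, 1 and 2, and 4 and 4. The same holds for the remaining effectors. Iigp1 (Irga6), the best studied effector, was 20 and 42, 115 and 111, and 21 and 19 in DMSO and 118 and 127, 115 and 123, and 32 and 32 in pre-p38i, but 1 and 1, 2 and 2, and 4 and 3 in p38i. Gm12250, which liberates bacterial ligands for inflammasomes, was 9 and 23, 57 and 46, and 19 and 19 in DMSO and 87 and 104, 112 and 127, and 45 and 52 in pre-p38i. It was 0 and 0, 2 and 3, and 4 and 3 in p38i.

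Among the GBPs, Gbp2 was most abundant on day 3 of pre-p38i. Gbp2, which is recruited to vacuoles and to cytosolic bacteria, was 156 and 237, 299 and 285, and 87 and 80 in DMSO on days 3, 5 and 7, against 734 and 751, 400 and 429, and 121 and 125 in pre-p38i. In p38i it was 21 and 30, 37 and 33, and 34 and 39. Gbp3 was 145 and 175, 240 and 240, and 113 and 96 in DMSO, 357 and 378, 308 and 323, and 127 and 119 in pre-p38i, and 30 and 31, 65 and 59, and 60 and 63 in p38i. The arms of Gbp3 were closest on day 7, where the lowest pre-p38i library was 6 above the highest DMSO library. Gbp7 was the least abundant GBP, at 40 and 51, 63 and 66, and 24 and 27 in DMSO and 102 and 108, 77 and 83, and 35 and 40 in pre-p38i. In p38i Gbp7 was 9 and 9, 17 and 17, and 16 and 16.

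Per length, the order of the members at the DMSO peak on day 5 was Tgtp1 (mean 849), Irgm1 (666.5), Gbp2 (292), Gbp3 (240), Igtp (237.5), Tgtp2 (154), Irgm2 (128.5), Iigp1 (113), Gbp7 (64.5) and Gm12250 (51.5). Gbp3 and Igtp overlapped in their libraries, as did Tgtp2 and Irgm2, and the other neighbours in that order did not. The summed value of the 10 genes was 32 in untreated MEFs, 57 on day 1 in DMSO, then 1749.5 ± 375, 2796.5 ± 81.3 and 1202.5 ± 71.4 at the later times (mean ± SD, n = 2). In pre-p38i it was 58.5, 4084 ± 90.5, 3282 ± 161 and 1615 ± 42.4, and on day 3 the family took 0.405% and 0.418% of the library. In p38i it was 35, 251.5 ± 6.36, 477 ± 18.4 and 544.5 ± 6.36. The makeup differed as well: on day 3 the 4 effectors made up 34.9% and 34.3% of the sum in DMSO, 36.0% and 34.1% in pre-p38i, but only 16.2% and 15.2% in p38i, whereas the GBPs made up 23.0% and 23.0%, 29.7% and 29.8%, and 24.3% and 27.3%. On day 7 the effector share in p38i was 29.1% and 29.9%, against 38.1% and 38.2% in DMSO.

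**Figure D3:**
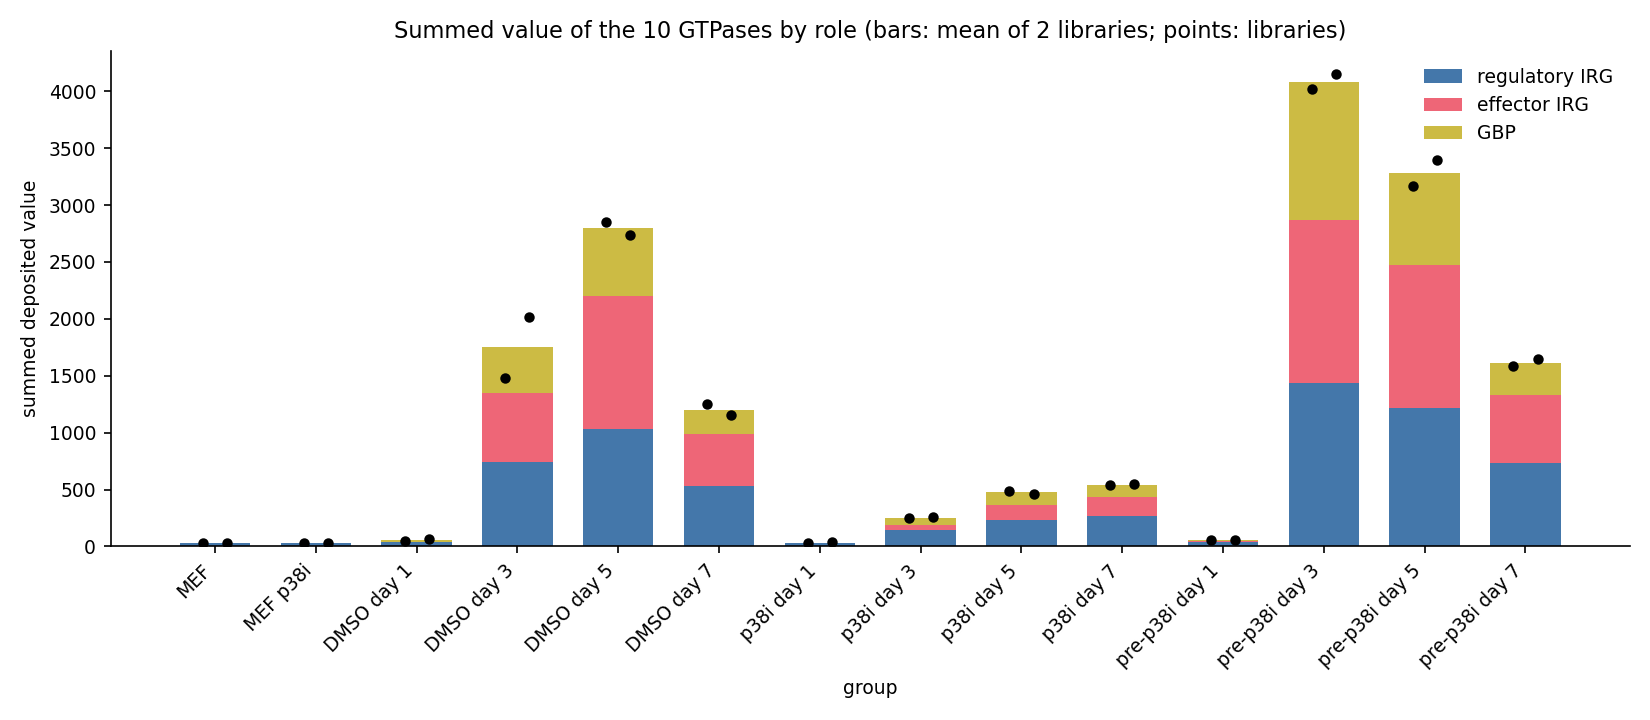
Summed deposited value of the 10 GTPases in each group, split into regulatory IRGs (Irgm1, Irgm2, Igtp), effector IRGs (Tgtp1, Tgtp2, Iigp1, Gm12250) and GBPs (Gbp2, Gbp3, Gbp7). Bars are means of 2 libraries and black points the sums of each library. The tallest bar is day 3 of pre-p38i at 4084, and the p38i bars rise slowly to 544.5 on day 7.

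The time course had a different shape in each arm. In DMSO all 10 members had their highest mean on day 5, with both libraries of that day above every other DMSO library, which held for 7.03% of all genes. In pre-p38i 8 members were highest on day 3 (7 of them with no overlap, Iigp1 being the exception, against 6.74% of all genes) and Tgtp2 and Gm12250 on day 5. In p38i 8 were highest on day 7 (6 with no overlap, against 13.7% of all genes) and Gbp3 and Gbp7 on day 5. By day 7 the members had declined to between 17.7% (Iigp1) and 59.0% (Irgm1) of their highest mean in DMSO, with a median of 37.4%, and to between 16.6% (Gbp2) and 56.3% (Tgtp2) in pre-p38i, with a median of 37.4%. In p38i they stood at 94.1% to 100% of it. As a percentage of the DMSO mean of the same day, the members in p38i were at 0% to 24.4% on day 3 (median 9.8%), 0.97% to 29.4% on day 5 (median 12.6%) and 7.34% to 62.7% on day 7 (median 42.4%), and for 10 of 10 the percentage was higher on day 7 than on day 5. The gap to DMSO thus narrowed by day 7 while the DMSO level itself had declined. These values include days 3 and 5 and are a description.

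The differences between p38i and DMSO on days 3 and 5 are those that led to the choice of members. On day 3, the p38i arm was lower than DMSO in 10 of 10 members with no overlap and a log2 difference of at least 1, which holds for 4.45% of all genes, and the differences ran from -2.02 (Irgm1) to -4.63 (Tgtp2), with a median of -3.31. Pre-p38i was higher than DMSO with no overlap in 10 of 10 (33.9% of all genes), and in 8 of 10 also by at least 1 (1.56% of all genes), from 0.67 (Irgm1) to 2.63 (Gm12250), with a median of 1.47. The DMSO libraries of day 3 differed between themselves (Gm12250 was 9 and 23), and the second was the higher in every member. Without it, the median difference of p38i from DMSO was -2.98. On day 5 p38i remained lower than DMSO in 10 of 10 (background 4.76%), from -1.76 (Irgm1) to -5.96 (Tgtp2), whereas pre-p38i was close to DMSO: 8 were higher with no overlap (31.2% of all genes), Tgtp1 was lower (718 and 758 against 862 and 836), Iigp1 overlapped, and only Gm12250 differed by at least 1 (background 1.41%). Between p38i and pre-p38i the differences were lower by at least 1 in 10 of 10 on both days (background 6.88% and 8.25%), with medians of -4.78 and -3.27. The comparisons of p38i and of pre-p38i with DMSO share the DMSO libraries of each day.

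The libraries of day 7 played no part in the differences that led to the choice, and the difference of p38i from DMSO was present there too. They are no independent check, since the members were chosen with earlier results of these data known. Tgtp2, Iigp1 and Gm12250, at most 4 in any p38i library, passed the filter only through the DMSO and pre-p38i arms, which tilts the counts toward lower. With p38i during induction 9 of 10 members were called lower on day 7 (limma), against 17.6% of all genes, and 10 of 10 were lower with no overlap, against 30.3%. The median log2 difference was -1.23, and that of all genes 0. The 3 members that differed most on the log2 scale were Tgtp2, Iigp1 and Gm12250, the effector IRGs with that limit of the filter. Their rank is therefore no result about effectors, and the other effector, Tgtp1, differed less than the regulator Igtp. The split of reads between Tgtp1 and Tgtp2 is uncertain, and their sum was 149 and 158 in p38i against 437 and 402 in DMSO. Tgtp2 was 13.6-fold lower (-3.47 ± 0.30 SE, limma adjusted p = 5.82e-08), Iigp1 5.71-fold (-2.23 ± 0.21, limma adjusted p = 1.25e-07), Gm12250 5.43-fold (-2.16 ± 0.26, limma adjusted p = 2.97e-06) and Tgtp1 2.44-fold (-1.28 ± 0.19, limma adjusted p = 3.6e-05). Of the regulators, Igtp was 3.75-fold lower (-1.86 ± 0.23, limma adjusted p = 3.04e-06), Irgm2 2.24-fold (-1.12 ± 0.26, limma adjusted p = 0.00244) and Irgm1 1.75-fold (-0.80 ± 0.10, limma adjusted p = 6.02e-06). Among the GBPs, Gbp2 was 2.29-fold lower (-1.17 ± 0.20, limma adjusted p = 0.000155) and Gbp7 1.59-fold (-0.64 ± 0.22, limma adjusted p = 0.0298). Gbp3, at 60 and 63 against 113 and 96, was not called (-0.75 ± 0.31, limma adjusted p = 0.0713). Leaving out any 1 of the 4 libraries ended the call of Gbp7, which left 8 of 10. With a pseudocount of 0.1 in place of 1, 6 of 10 were called, and Tgtp1, Irgm2 and Gbp7 were not (limma adjusted p = 0.115, 0.333 and 0.463).

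Pre-treated cells were above the control on day 7 in a part of the family. With pre-p38i 5 of 10 members were called higher (limma), against 15.4% of all genes, and 9 of 10 were higher with no overlap, against 34.7%. The median log2 difference was 0.59, and that of all genes 0.053. Tgtp2 was 2.91-fold higher (1.52 ± 0.30, limma adjusted p = 0.000789), Gm12250 2.55-fold (1.304 ± 0.26, limma adjusted p = 0.000798) and Igtp 2.24-fold (1.16 ± 0.23, limma adjusted p = 0.000623). Smaller differences were called for Iigp1 (1.60-fold, limma adjusted p = 0.0221) and Gbp2 (1.47-fold, limma adjusted p = 0.0446), and leaving out any 1 of the 4 libraries ended both, which left 3 of 10. Irgm2 (0.63, limma adjusted p = 0.08), Gbp7 (0.54, limma adjusted p = 0.0708), Irgm1 (0.22), Gbp3 (0.24) and Tgtp1 (-0.02) were not called. With a pseudocount of 0.1, 1 of 10 was called. The sum of Tgtp1 and Tgtp2, whose split is uncertain, was 506 and 530 in pre-p38i against 437 and 402 in DMSO. Set side by side, p38i was lower than pre-p38i on day 7 in 10 of 10 (limma; background 29.5%), from -0.99 (Gbp3) to -4.99 (Tgtp2, 39.6-fold), with a median of -1.74. Gbp3 lost this call without p38i day 7 replicate 1 and without pre-p38i day 7 replicate 1, and with a pseudocount of 0.1 the count was 6 of 10.

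**Figure D4:**
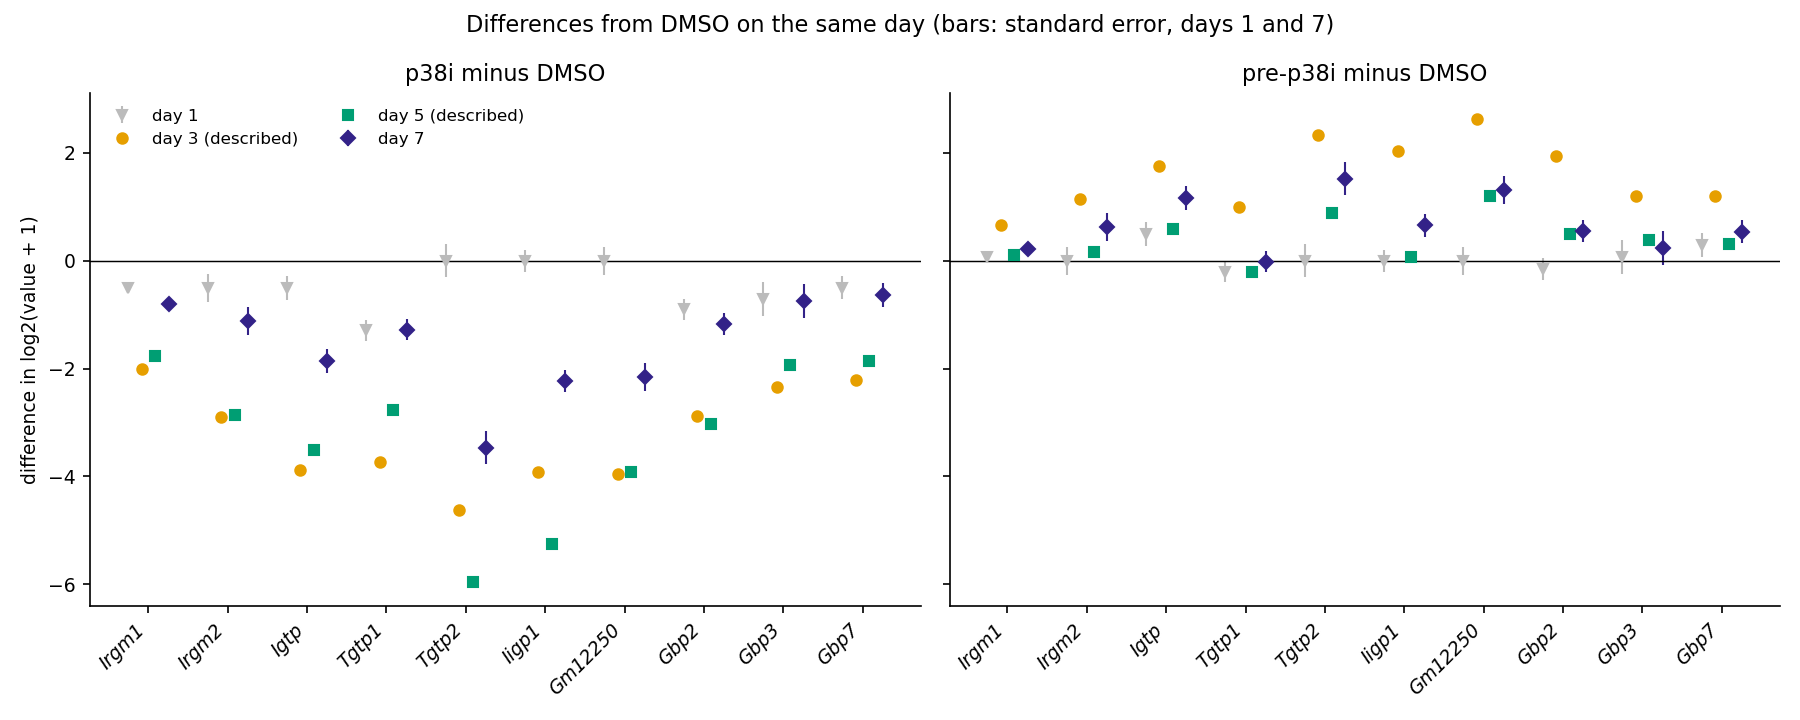
Difference in log2(value + 1) from DMSO of the same day for each member, at the left for p38i and at the right for pre-p38i. Symbols mark the day, and bars are standard errors of the limma fit on days 1 and 7; days 3 and 5 are a description. The p38i differences lie at 0 or below and are lowest on day 3 or 5, and the pre-p38i differences are highest on day 3.

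All members rose between day 1 and day 7 in each arm. The count called higher was 10 of 10 in DMSO (limma; background 28.4%), in p38i (background 32.8%) and in pre-p38i (background 36.1%), with median log2 differences of 4.36, 3.33 and 5.13. The family therefore also rose with p38i present. Tgtp2, Iigp1 and Gm12250, at 0 in every MEF and day 1 library, passed the filter through later libraries only and could not fall. The members were also chosen with later values known, so these counts beside those of all genes are no independent test of the rise. The change of the p38i difference from day 1 to day 7 was itself called for 4 members (limma; background for lower 7.55%), Tgtp2, Iigp1, Gm12250 and Igtp, and that of the pre-p38i difference for Tgtp2 and Gm12250 (background for higher 7.25%). The latter 2 calls were lost without DMSO day 7 replicate 2 and without pre-p38i day 7 replicate 2. That of Gm12250 was also lost without DMSO day 7 replicate 1. For Tgtp2, Iigp1 and Gm12250, at 0 in every day 1 library, the change equals the day 7 difference. It is no separate result for them, and the background shares beside it lend no further support. The call of Igtp in p38i, which rests on day 1 values of 0 and 0 against 1 and 0 for the control, was lost with a pseudocount of 0.1 and with only the groups compared in the fit.

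The division of reads between Tgtp1 and Tgtp2 also moved with the arms. Tgtp2 took 4.50% and 8.29% of the sum of both on day 3 in DMSO, 17.3% and 13.3% on day 5, and 13.3% and 12.7% on day 7. In pre-p38i the shares were 13.3% and 15.5%, 26.6% and 28.6%, and 29.3% and 31.9%. Those of p38i were 0% and 2.63%, 0.769% and 1.65%, and 2.69% and 2.53%. On each of the 3 days the shares of p38i lay below those of DMSO, and those of pre-p38i above. Because the transcripts are nearly identical, these shares depend on few differing bases, and how the reads were assigned was not tested. With both genes summed into 1, 9 members entered the counts.

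Most relatives outside the 10 that were expressed were also lower in p38i on day 7. The list of other IRG and GBP genes was wider than these families, since it also named Gvin1, Gvin2, Gvin3, Gm4070 and Gm8995. Of its genes, 19 were in the table and 12 passed the filter. On day 7, 7 of 12 were lower and 1 higher in p38i relative to DMSO (limma), with a median log2 difference of -1.03, and in pre-p38i 3 were higher and 1 lower, with a median of 0.40. Of all genes, 17.6% were called lower in p38i and 15.4% higher in pre-p38i. Ifi47 (Irgd), another IRG, was 112 and 103 in DMSO, 33 and 33 in p38i and 163 and 161 in pre-p38i on day 7. Gbp4 stood at 7 and 6, 2 and 1, and 16 and 14, and Gbp2b (Gbp1) at 30 and 26, 15 and 14, and 38 and 38. Both were called lower in p38i (limma; -1.61 and -0.90) and higher in pre-p38i (1.09 and 0.43). Gbp6, at 6 and 6 in DMSO and 1 and 3 in p38i, and Gm4951, an IRG, at 11 and 15 against 3 and 4, were called lower as well (limma; -1.31 and -1.63). Gm4070 went the other way in pre-treated cells: it was 33 and 33 in DMSO, 10 and 12 in p38i and 19 and 20 in pre-p38i, called lower in both (limma; -1.51 and -0.73). Gbp9 was 7 and 9, 7 and 7, and 9 and 11, with no call. Irgq, an atypical IRG, was the gene called higher in p38i (limma; 12 and 12 in DMSO, 16 and 16 in p38i).

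Transcripts of the ligands that were looked up were almost absent. Of a set list of 20 interferon genes, all of them in the table, 19 were listed at 0 in all 28 libraries. The remaining one, Ifng, which codes for interferon gamma, was above 0 in 5 libraries: 1 and 2 on day 3 of pre-p38i, and 1 in one library each of DMSO day 5, pre-p38i day 5 and pre-p38i day 7. Since values were rounded down, a ligand below 1 would also be listed at 0.

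Single receptors and Janus kinases differed in each direction on days 1 and 3. Of the 8 tested, 1 was called lower in p38i on day 1, against 12.6% of all genes, so that count was near the share of the table. On day 1 Jak2 was called lower in p38i than in DMSO (15 and 15 against 22 and 21, limma; -0.49) and Ifngr2 higher (38 and 37 against 30 and 28, limma; 0.36), 1 of 8 each way. On day 3, given as a description, Ifngr1 was 24 and 24 in p38i against 30 and 32 in DMSO, Ifnar2 41 and 42 against 53 and 51, and Jak2 17 and 16 against 22 and 22, while Ifngr2 was 31 and 36 against 22 and 18. The median over the 8 on day 3 was -0.02. On day 7, 5 of 8 were called higher in p38i than in DMSO and 0 lower (limma), with a median log2 difference of 0.29. Ifngr1 and Ifngr2, the chains of the interferon gamma receptor, were 29 and 25 and 25 and 24 in DMSO, and 33 and 35 and 32 and 36 in p38i (limma; 0.33 and 0.45). Ifnar1 of the type I receptor (0.27) and the kinases Jak1 (0.38) and Jak2 (0.32) were called higher too, while Ifnar2 (0.05), Il10rb (0.16) and Tyk2 (-0.09) were not called. In pre-p38i 4 of 8 were lower on day 7, namely Ifngr2 (17 and 17), Ifnar1, Il10rb and Jak1. Shares of all genes called higher in p38i or lower in pre-p38i on day 7 are not given here. Ifnlr1 did not pass the filter. From day 1 to day 7 in DMSO 6 of 8 receptors and kinases fell and 0 rose, with a median of -0.35, while the GTPases rose. The median of all genes was 0.03. The share of all genes that fell is not given here, so the count alone is no result about the receptors.

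Of the transcription factors, Irf1 and Nlrc5 were lower in p38i and higher in pre-p38i on day 7, as many of the GTPases were. Irf1, a factor that drives many gamma-induced genes, was 43 and 47 in DMSO, 27 and 22 in p38i and 60 and 76 in pre-p38i on day 7 (limma; -0.86 and 0.58, both called), and Nlrc5, the activator of class I antigen presentation genes, 8 and 5, 2 and 2, and 18 and 17 (-1.29 and 1.33, both called). Stat2 and Irf9, which act in the type I response, showed no called difference in p38i on day 7 (-0.17 and 0.07), nor did Irf7 (-0.41), although Stat2 was higher in pre-p38i (0.52). Irf8 did not pass the filter. In all, 3 of 11 transcription factors were lower and 1 higher in p38i, and 6 higher and 0 lower in pre-p38i. The shares of all genes were 17.6% called lower in p38i and 15.4% called higher in pre-p38i. Of the feedback inhibitors, Socs1, at 11 and 15 in DMSO and 9 and 7 in p38i, and Usp18, at 86 and 92 and 89 and 83, were not called, and 1 of 8 was lower.

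The antiviral genes of the type I response had medians closer to 0 on day 7. Of 27 that passed the filter, 8 were lower and 1 higher in p38i than in DMSO, with a median of -0.26 against -1.23 for the GTPases, and 2 were higher and 1 lower in pre-p38i, with a median of 0.09 against 0.59. Among all genes, 17.6% were called lower in p38i and 15.4% higher in pre-p38i on day 7. The difference between the antiviral genes and the GTPases was not tested. The antiviral genes rose from day 1 to day 7 as the GTPases did: 26 of 27 were called higher in DMSO, 27 of 27 in p38i and 26 of 27 in pre-p38i (limma), with medians of 3.90, 3.40 and 3.59. On day 3 their medians were -1.26 for p38i and 0.79 for pre-p38i, against -3.31 and 1.47 for the GTPases. The GTPases were chosen with differences of day 3 known, so these medians cannot rank the GTPases against the antiviral genes. The genes that load GTPases onto membranes through the autophagy conjugation machinery showed small differences on day 7. In p38i 4 of 11 were higher and 0 lower (median 0.18), and in pre-p38i 0 were higher and 6 lower (median -0.27). Shares of all genes called higher in p38i or lower in pre-p38i are not given here. Of 5 inflammasome partners of the GBPs that passed the filter, 3 were lower and 0 higher in p38i (median -0.91), and none was called in pre-p38i (median 0.30).

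**Figure D5:**
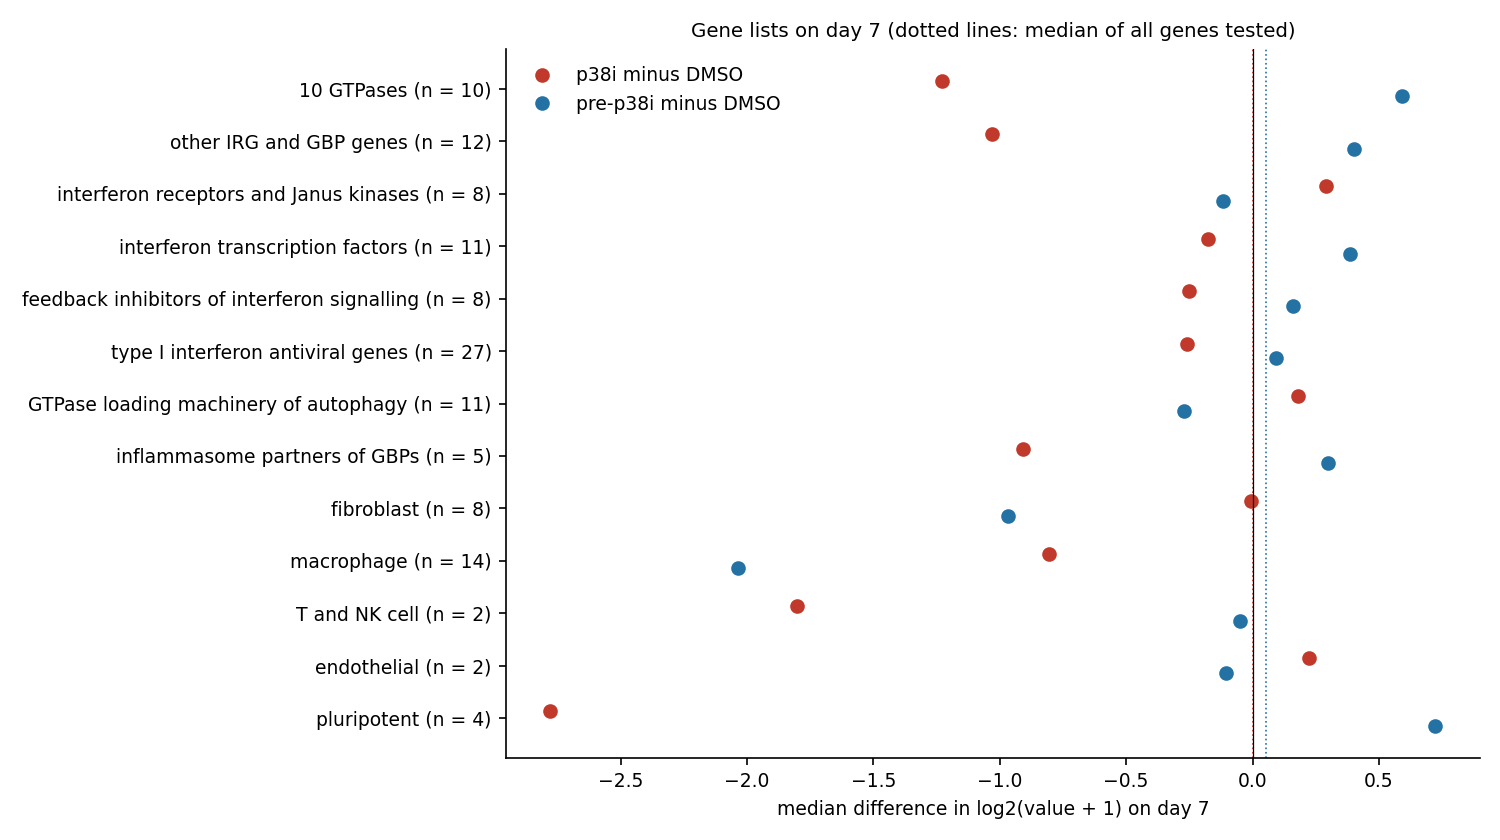
Median difference in log2(value + 1) from DMSO on day 7 for the 10 GTPases and for each gene list, with n the genes that passed the filter. Red points are p38i, blue points pre-p38i, and dotted lines the median of all genes tested. The GTPases lie at -1.23 and 0.59, and the receptors and kinases at 0.29 and -0.12.

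The genes whose pattern was most like that of the family were sought over the 14 group means, among 10658 genes outside it with a mean of at least 5. Among the highest correlations with the mean of the 10 standardised members were those of Ifi47 (Pearson r = 0.996), Tap1 (0.994), Tap2 (0.991), Parp14, Psme2, H2-T23, Ifitm3, Erap1 and Gm43302 (0.982). Tap1, Tap2, Psme2 and Erap1 make and carry peptides for class I antigen presentation, and H2-T23 is a nonclassical class I molecule. Between the members themselves r ran from 0.881 to 0.996, with a median of 0.975 over 45 pairs. The points share their libraries and one steep rise after day 1, so these values are a description.

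In a bulk library fewer cells that express a gene and less RNA of it per cell cannot be told apart, and markers of other cells moved with the arms. Fibroblast markers were present, as the label says: the sum of 8 was 7585 and 7399 in untreated MEFs. On day 1 it was 3832 and 3617 in DMSO, 2481 and 2500 in p38i and 2585 and 2690 in pre-p38i. On that day 6 of 8 were called lower in p38i than in DMSO (limma), against 12.6% of all genes. On day 3 it was 3788 and 3482, 1898 and 1839, and 2445 and 2524, so the sum was lower in p38i at the time of the low GTPase values, and lower in pre-p38i as well. On day 7 it stood at 1374 and 1451, 1505 and 1562, and 815 and 756. Macrophages respond to interferon gamma with the same GTPases, and none of 16 macrophage markers was at 0 throughout. Their sum on day 3 was 553 and 551 in DMSO, 297 and 287 in p38i and 251 and 237 in pre-p38i, and on day 7 it was 421 and 432, 328 and 277, and 131 and 123. On day 7, 7 of 14 that passed the filter were lower and 1 higher in p38i (median -0.81), against 17.6% of all genes called lower. In pre-p38i, in which 5 of 10 GTPases were called higher, 14 of 14 were lower (median -2.03), and the share of all genes is not given here. The markers did not move as one: on day 7 Cd68 was 54 and 49 in p38i against 36 and 33 in DMSO, and Laptm5 71 and 57 against 151 and 157. During induction Cx3cr1 was at 0 in every library, Ptprc at most 2 and Csf1r at most 4. Of 10 T and NK cell markers, 7 were at 0 in every library (Cd3d, Cd3e, Cd8a, Nkg7, Klrb1c, Ncr1 and Gzma), but the sum of the list on day 5 was 59 and 54 in DMSO, 6 and 7 in p38i and 49 and 51 in pre-p38i, nearly all of it from Cd3g (52 and 50, 6 and 6, and 40 and 44). The sum of 6 endothelial markers was 61 and 61, 69 and 63, and 62 and 67 on day 7. That of 8 pluripotency markers was 74 and 86, 8 and 10, and 136 and 132, and the 4 that passed the filter were lower in p38i. The part of these cells in the values of the GTPases was not tested.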

How the data were processed

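RNA-seq of 28 libraries in 14 groups of 2 was analysed. The deposited score of a gene is a whole number; per the submitters' processing notes the tools included bcl2fastq, Bowtie2 2.2.5 and RSEM 1.3.0 with builds mm10 and hg38, and the authors' values were read as TPM rounded down (library totals between 991287 and 992537). This reading is inferred from the totals. Labels and methods name different extraction reagents and versions of the library kit. Read depth is unknown, so no counting intervals were given.

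Groups came from the labels. Genes with a mean value of at least 1 (13230 of 50600) were fitted with limma 3.58.1 in R 4.3.3 on log2(value + 1), with 1 mean per group, a trended variance and 14 residual degrees of freedom, and p-values were adjusted by the Benjamini-Hochberg method over all genes. Of 19 comparisons 13 were tested and 6, on days 3 and 5, were described. The members and all gene lists were chosen with earlier results of these data known. Named beyond the members were the other IRG and GBP genes with a mean of at least 5, the ligands, receptors, kinases and 9 set signalling genes, and the 10 genes most like the members. Exceptions named after their values were seen are Gm12185, Gm43802 and the cell markers. The fit was tested on simulated data for day 7 of p38i against DMSO over 13230 genes, in which 87% of changes of 1 and 98% of changes of 2 on the log2 scale were called, and 10.6% of calls were unchanged genes. Alternatives were other pseudocounts (0.1 and 5), filters, quantile normalization, a replicate block, fits on the compared groups, Tgtp1 and Tgtp2 summed, and each library left out. Transcripts of GENCODE M21 were compared with BLAST 2.17.0+, and 2 genes were called near-identical from 95% identity over 200 bases. Promoter windows are RefSeq's, and none was printed for Iigp1. Figures were drawn with matplotlib 3.10.9. One gene of the transcription factor list is counted in that list but not reported here.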

Additional observations from a re-analysis of the deposited data

Results flagged for a closer look

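For 6 results the difference between arms changed from day 1 to day 7 by its own test (limma, change of the log2 difference). In p38i against DMSO the change was -3.47 for Tgtp2 (limma adjusted p = 1.19e-05), -2.23 for Iigp1 (limma adjusted p = 2.2e-05), -2.16 for Gm12250 (limma adjusted p = 0.000334) and -1.36 for Igtp (limma adjusted p = 0.00455). The call of Igtp, whose day 1 values were 1 and 0 in DMSO and 0 and 0 in p38i, was lost with a pseudocount of 0.1 (-0.17, limma adjusted p = 0.925) and with only the groups compared in the fit (-1.36, limma adjusted p = 0.0935). In pre-p38i against DMSO it was 1.52 for Tgtp2 (limma adjusted p = 0.019) and 1.304 for Gm12250 (limma adjusted p = 0.0192). Tgtp2, Iigp1 and Gm12250 were listed at 0 in every day 1 library, so for them the change equals the difference on day 7, and a difference on day 1 between values under 1 would not have been seen. Both comparisons use the same DMSO libraries.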

How the results depend on the processing

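Over the 13 tested comparisons the members had 73 calls, which were recomputed under each alternative that gave a value. Of 884 such values 826 kept direction and call, 58 kept the direction and lost the call, and 0 reversed, and 48 calls were kept in every alternative. With only the groups compared in the fit, 0 of 10 members were called on day 1 in p38i against DMSO, 1 in p38i against pre-p38i on day 1, 3 in DMSO day 1 against MEFs and 4 in the change of the pre-p38i difference. A pseudocount of 0.1 gave 6 calls in place of 9 on day 7 in p38i against DMSO, 1 in pre-p38i against DMSO and 6 in p38i against pre-p38i, and 0 in that change, a pseudocount of 5 gave 5 in that change, quantile normalization gave 3 in DMSO day 1 against MEFs and 1 in that change, and summing Tgtp1 and Tgtp2 gave 1 in that change. Among the described medians, day 3 p38i against DMSO was -2.52 with a pseudocount of 5 and -2.89 with the sum, day 3 p38i against pre-p38i was -4.37 with a pseudocount of 5, and day 5 p38i against pre-p38i was -3.07 and -3.01. The cause of these shifts was not tested.

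With each library left out in turn, the calls were 0 to 1 for MEFs, 0 to 1 for pre-p38i, 3 to 4 for p38i and 4 to 5 for p38i against pre-p38i on day 1, 8 for p38i, 3 for pre-p38i and 9 to 10 for p38i against pre-p38i on day 7, 5 for DMSO day 1 against MEFs, 10 for day 7 against day 1 in each arm, and 4 to 6 and 0 to 3 for the changes of the p38i and pre-p38i differences. The medians ranged from -3.54 to -2.98 and from -4.89 to -4.68 on day 3 for p38i against DMSO and against pre-p38i, from 1.23 to 1.74 for pre-p38i, and on day 5 from -3.06 to -2.83, from -3.39 to -3.15 and from 0.31 to 0.39. A lone library of a group was assumed to vary like those of the other groups.

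The replicate numbers did not pair the libraries: over 13 pairs of groups the correlation of deviations ran from -0.0159 to 0.0513. With the replicate number as a block, 4 members were called in p38i and 6 against pre-p38i on day 1, 9 in p38i and 5 in pre-p38i on day 7, and the other counts were the same, with Gbp7 lost on day 7 in p38i.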

Other observations

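Some signalling genes stood at the DMSO level in p38i on day 7 while the GTPases did not. For Usp18 and Irf9 the DMSO level fell from day 5 to day 7, and the p38i level hardly moved. Usp18, an inhibitor of type I interferon signalling that interferon itself induces, was 93 and 111 (DMSO) against 44 and 39 (p38i) on day 3, 120 and 122 against 89 and 82 on day 5, and 86 and 92 against 89 and 83 on day 7. Irf9 was 95 and 100 against 58 and 64, 103 and 110 against 80 and 85, and 82 and 81 against 89 and 82. Their log2 differences on day 7 were -0.05 ± 0.26 SE for Usp18 and 0.07 ± 0.09 for Irf9, neither called (limma). Irf1 was 45 and 71 against 11 and 11, 86 and 86 against 14 and 17, and 43 and 47 against 27 and 22. Irf7, the factor that amplifies type I interferon, was lower in p38i already on day 1 (2 and 2 against 6 and 7, log2 difference -1.32 ± 0.16, called by limma) and was 76 and 79 against 101 and 106 on day 7. Whether these genes differ from the GTPases in their course was not tested.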
